A study of Homo sapiens with 40 samples.

Results

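GDF15 (growth differentiation factor 15, ENSG00000130513_at) is 1 gene of the 22069 measured on 40 Affymetrix Human WT arrays, and its level and change are described in 16 groups of cells. The gene was picked by its identifier because of its measured response in these same arrays, so its values are given as a description with no test. Standard errors come from a limma fit that pools the spread of all groups fitted together. They are therefore not the spread of the groups compared, which the SD of each group gives. The study compared an osteosarcoma cell line, U2OS, with hTERT-RPE1, a line of retinal pigment epithelial cells immortalized with telomerase, after knockdown of regulators of histone genes. On days 1 and 2 each line received control siRNA or CASP8AP2 siRNA, with 3 arrays per group. On day 3 each line received control, CASP8AP2, NPAT or HINFP siRNA, with 2 arrays per group. All siRNAs were pools used at 15 nM, and the control was the commercial AllStars Negative Control. Both lines grew with serum, but U2OS cells in DMEM and hTERT-RPE1 cells in a DMEM-based mix that held hygromycin B. A difference between the lines thus cannot be told apart from one of medium. Each cell type is represented by 1 line, and both day 3 replicates of a group came from a simultaneous transfection.

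GDF15 is a secreted, distant member of the TGF-beta family. The protein is made as a precursor that is cut by furin-like proteases. It signals through GFRAL, a receptor found in the hindbrain, together with RET. Its transcript is known to respond to cell stress, and it is a known target of p53 and of the integrated stress response, the pathway that runs through ATF4. CASP8AP2, also called FLASH, and NPAT work in the nuclear bodies where histone genes are transcribed. HINFP binds histone H4 promoters.

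The promoter of GDF15 is shown because the transcription factors described further on are known to act there. The bases just before the transcription start (RefSeq, GRCh38.p14, chr19:18385908-18386157, plus strand, upstream of the first exon) read 5′ to 3′ as follows, with motif matches in capitals.
GDF15 promoter: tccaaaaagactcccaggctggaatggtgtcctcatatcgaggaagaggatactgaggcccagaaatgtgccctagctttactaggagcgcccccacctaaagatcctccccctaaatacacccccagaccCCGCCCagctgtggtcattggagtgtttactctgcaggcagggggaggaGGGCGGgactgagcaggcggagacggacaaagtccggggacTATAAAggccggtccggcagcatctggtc
The TATA box letters TATAAA stood 29 to 24 bases before the start, and 10.7% of all 35116 promoter windows of this length hold them on either strand. The GC box letters GGGCGG, which are bound by SP1 and SP3, stood at 70 to 65 bases before the start and on the other strand at 119 to 114, and 42.6% of all windows hold them. The letters TGATGCAA (a C/EBP-ATF composite element, 0.772% of windows), TGACGTCA (a cyclic AMP response element, 1.65%), GCGGGGGCG (an EGR1 element, 4.72%) and a p53 half-site (5.57%) were not in this window on either strand. The half-site was sought as RRRCWWGYYY, with R for A or G, W for A or T and Y for C or T. Only exact matches were sought, so imperfect sites and sites after the start were not covered.

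The arrays gave 1 log2 value per gene, so a difference of 1 is a 2-fold change of array signal. The mean of an array was 6.00 to 6.05 in the set of days 1 and 2 and 5.85 to 5.88 in that of day 3, so the sets were taken as normalized apart and no test crosses them. In such bulk samples fewer cells of a type and less RNA per cell cannot be told apart. Replicate arrays correlated with r of 0.995 to 0.998. Every array with a targeting siRNA lay below its control arrays for the targeted transcript. Measured as array signal, the share of CASP8AP2 transcript left was 55.5%, 59.1% and 58.7% on days 1, 2 and 3 in hTERT-RPE1 cells. In U2OS cells it was 40.6%, 30.1% and 44.3%. NPAT siRNA left 40.3% and 33.3% of the array signal of its transcript in the 2 lines, and HINFP siRNA left 48.4% and 32.0%. The pigment epithelium markers RLBP1 (4.09 in hTERT-RPE1 and 4.17 in U2OS controls on day 1) and BEST1 (4.13 and 4.28) were low in both lines, as were the bone markers IBSP (4.21 and 3.76) and COL1A2 (4.41 and 4.49), whereas RUNX2 was at 9.57 in hTERT-RPE1 and 7.34 in U2OS controls. The labelled cell types could not be checked further, since few of their markers had a paired symbol.

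In hTERT-RPE1 cells GDF15 was higher with CASP8AP2 siRNA than with control siRNA on every day, and the gap was wider on day 2 than on day 1. On day 1 the 3 control arrays read 5.31, 5.23 and 5.16 (5.23 ± 0.08, SD, n = 3), and the 3 CASP8AP2 siRNA arrays read 8.67, 8.45 and 8.23 (8.45 ± 0.22). All siRNA arrays stood above all control arrays. The log2 difference was 3.21 (SE 0.15), which is 9.28-fold and rank 2 among the rises of all 22069 genes. On day 2 the control arrays read 4.99, 4.50 and 4.86 (4.78 ± 0.25) and the siRNA arrays read 10.33, 10.19 and 10.77 (10.43 ± 0.30). The gap between the groups had widened, with controls a little lower and siRNA arrays far higher than the day before. The log2 difference of 5.65 (SE 0.15, 50.05-fold) was the largest of all genes, the next being 3.58. The effect on day 2 exceeded that on day 1 by 2.43 (SE 0.21).

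On day 3 the 2 hTERT-RPE1 control arrays read 4.39 and 4.56, and the 2 CASP8AP2 siRNA arrays read 10.96 and 10.95. This difference, 6.48 (SE 0.20, 89.6-fold), was again the largest of all genes, with the next at 4.43. The share of genes below GDF15, which is counted within each array, was 46.7% to 48.4% in the day 1 controls, 38.2% to 43.8% in the day 2 controls and 38.7% to 41.5% in the day 3 controls. With CASP8AP2 siRNA it was 76.1% to 81.2%, then 94.2% to 96.9%, then 98.3% to 98.4%. GDF15 thus stood below the middle of the array in controls and among the brightest genes with CASP8AP2 siRNA on days 2 and 3. The day 3 control values, 4.39 and 4.56, were close to levels that are called low for other genes in this text. Whether the hTERT-RPE1 control signal was near background was not tested, and the fold values depend on it.

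**Figure D1:**
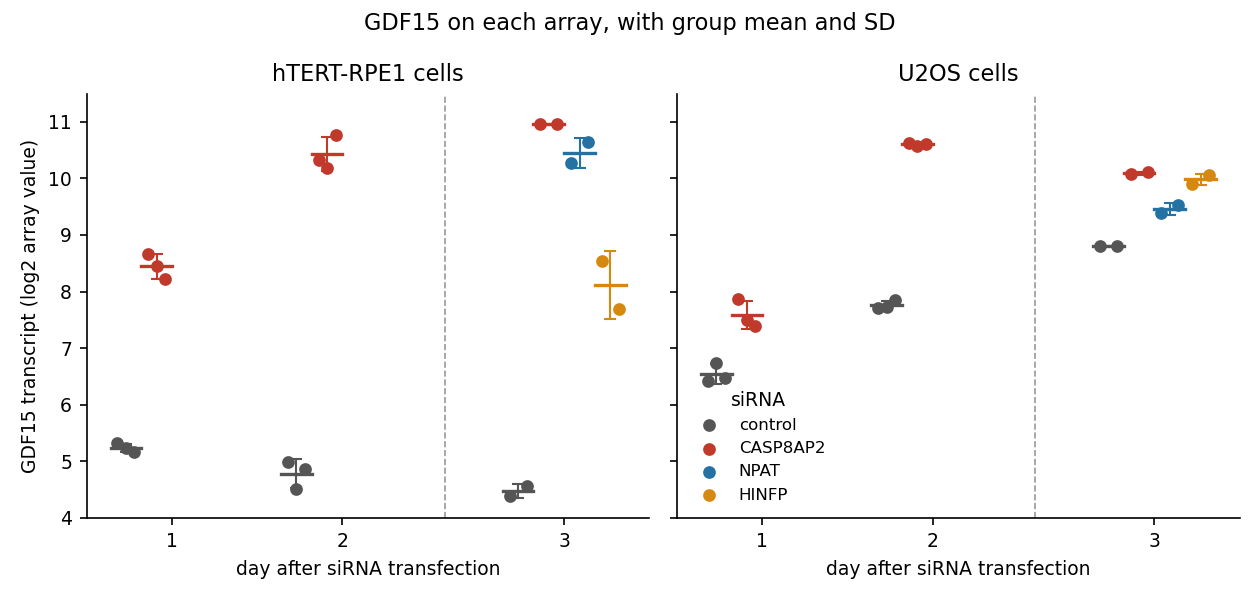
GDF15 transcript level (log2 array value, vertical axis) on each of the 40 arrays by day after transfection, with hTERT-RPE1 cells on the left and U2OS cells on the right. Points are arrays coloured by siRNA, horizontal bars are group means and whiskers are the SD. The dashed line parts the set of days 1 and 2 from that of day 3, which are not on a shared scale. The hTERT-RPE1 controls sit between 4.39 and 5.31, and the U2OS controls sit between 6.42 and 8.81.

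In U2OS cells GDF15 also stood above control on every day, from a control level that was itself higher on day 2 than on day 1. On day 1 the control arrays read 6.42, 6.74 and 6.46 (6.54 ± 0.17, SD, n = 3) and the CASP8AP2 siRNA arrays read 7.87, 7.49 and 7.39 (7.58 ± 0.25). The log2 difference was 1.04 (SE 0.15, 2.06-fold), rank 12 of all genes. On day 2 the controls read 7.70, 7.73 and 7.85 (7.76 ± 0.08) and the siRNA arrays read 10.62, 10.58 and 10.60 (10.60 ± 0.02). The difference was 2.84 (SE 0.15, 7.15-fold), rank 9. The effect on day 2 exceeded that on day 1 by 1.79 (SE 0.21). On day 3 the controls read 8.80 and 8.81 and the siRNA arrays 10.07 and 10.11, a difference of 1.28 (SE 0.20, 2.44-fold) at rank 104.

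The control cells of the 2 lines moved in opposite directions between days 1 and 2. In U2OS cells the level with control siRNA rose by 1.22 (SE 0.15, 2.33-fold), rank 5 of all genes, and every day 2 array stood above every day 1 array. In hTERT-RPE1 cells it fell by 0.45 (SE 0.15), and every day 2 array stood below every day 1 array. The share of genes below GDF15 on a U2OS control array was 58.0% to 61.0% on day 1 and 70.4% to 72.2% on day 2. On day 3, in the other set of arrays, it was 84.6% to 84.9%. The step from day 2 to day 3 cannot be told apart from one of the set.

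These separations were read against how often any gene separates. In hTERT-RPE1 cells under CASP8AP2 siRNA, 8.02% of all genes had every siRNA array above every control array on day 1, 9.97% on day 2 and 19.2% on day 3. The figures for U2OS cells were 11.9%, 17.7% and 30.0%. For NPAT siRNA they were 19.5% in hTERT-RPE1 and 25.9% in U2OS cells, and for HINFP siRNA 20.2% and 24.5%. Between control arrays, 11.9% of genes lay wholly lower on day 2 in hTERT-RPE1 cells and 15.6% wholly higher in U2OS cells. GDF15 was chosen on these contrasts, so nothing is read from its own separation.

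With NPAT or HINFP siRNA GDF15 was also higher than control on day 3, in comparisons that share the control arrays of each line. In hTERT-RPE1 cells the NPAT siRNA arrays read 10.26 and 10.64 against controls of 4.39 and 4.56, a log2 difference of 5.98 (SE 0.20, 62.9-fold), and the largest of all genes by a wide margin over the next, 2.87. The HINFP siRNA arrays read 8.53 and 7.69, which is the widest pair of any group, at a mean difference of 3.64 (SE 0.20, 12.5-fold), with the next gene at 3.53. That SE is pooled over groups and is small beside this pair's own SD of 0.60. Without HINFP siRNA replicate 1 the difference was 3.22, at rank 2. Without HINFP siRNA replicate 2 it was 4.06.

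In U2OS cells the NPAT siRNA arrays read 9.38 and 9.54 against controls of 8.80 and 8.81, a difference of 0.66 (SE 0.20, 1.57-fold) at rank 314. The HINFP siRNA arrays read 9.91 and 10.06, a difference of 1.18 (SE 0.20, 2.26-fold) at rank 90. Both pairs stood above the control pair. The U2OS differences were each smaller than any seen in hTERT-RPE1 cells on that day.

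**Figure D2:**
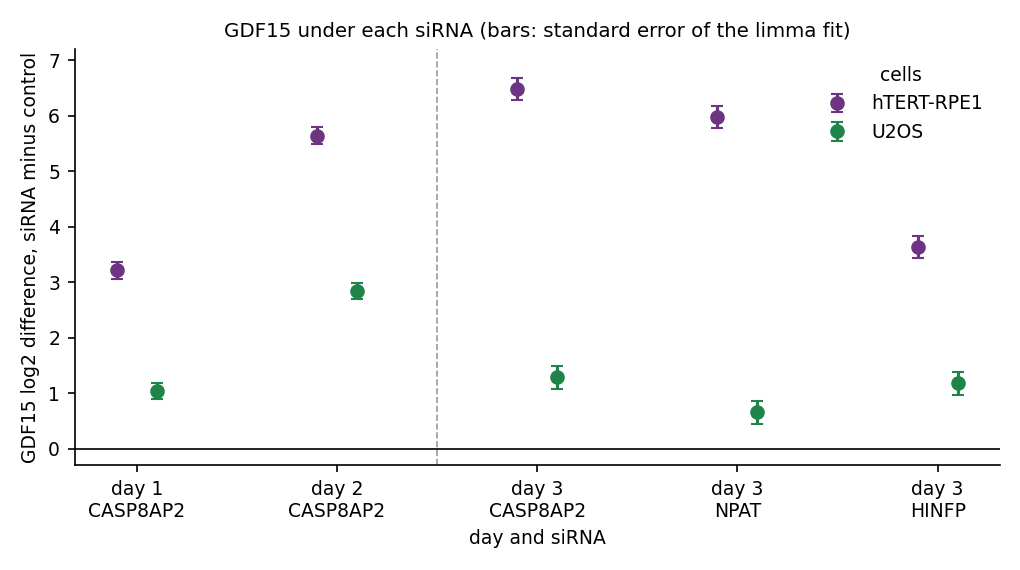
Log2 difference of GDF15, siRNA minus control siRNA of the same line and day (vertical axis), for each day and siRNA (horizontal axis), with hTERT-RPE1 in purple and U2OS in green. Whiskers are the standard error from the limma fit, pooled over all groups of a set, and the dashed line parts the 2 sets of arrays. The hTERT-RPE1 values run from 3.21 to 6.48 and the U2OS values from 0.66 to 2.84.

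The order of the 3 siRNAs by GDF15 level was not the same in both lines. In hTERT-RPE1 cells CASP8AP2 siRNA exceeded NPAT siRNA by 0.51 (SE 0.20) and HINFP siRNA by 2.85, and NPAT siRNA exceeded HINFP siRNA by 2.34. Without HINFP siRNA replicate 1 or 2, the gap to CASP8AP2 siRNA was 3.27 or 2.42 and the gap to NPAT siRNA 2.76 or 1.92. In U2OS cells CASP8AP2 siRNA exceeded NPAT siRNA by 0.63, and NPAT siRNA stood lower than HINFP siRNA (log2 difference -0.52). CASP8AP2 siRNA exceeded HINFP siRNA there by 0.11, which is less than its SE of 0.20 and at rank 6567 of all genes.

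The effect was smaller in U2OS than in hTERT-RPE1 cells in all 5 comparisons. The U2OS effect minus the hTERT-RPE1 effect was -2.17 (SE 0.21) on day 1 and -2.81 on day 2 under CASP8AP2 siRNA. On day 3 it was -5.20 (SE 0.29) for CASP8AP2, -5.32 for NPAT and -2.46 for HINFP siRNA, and in each of these no other gene had a lower value. For HINFP siRNA its place was rank 3 from the lowest, at -2.04, when HINFP siRNA replicate 1 in hTERT-RPE1 cells was left out. The targeted transcripts were left at a higher share in hTERT-RPE1 cells, as given above, and the part of this in the difference was not tested.

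The difference between the lines lay more in the control cells than in the treated cells. U2OS controls exceeded hTERT-RPE1 controls by 1.31 on day 1 (SE 0.15), 2.98 on day 2 and 4.33 on day 3 (SE 0.20). With CASP8AP2 siRNA, U2OS cells stood lower by a log2 difference of -0.86 on day 1, at 0.17 on day 2 with overlapping arrays, and at -0.87 on day 3. With NPAT siRNA the difference was -0.99, and with HINFP siRNA it was 1.87. The hTERT-RPE1 control signal was low, as given above, and whether it was near background was not tested.

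**Figure D3:**
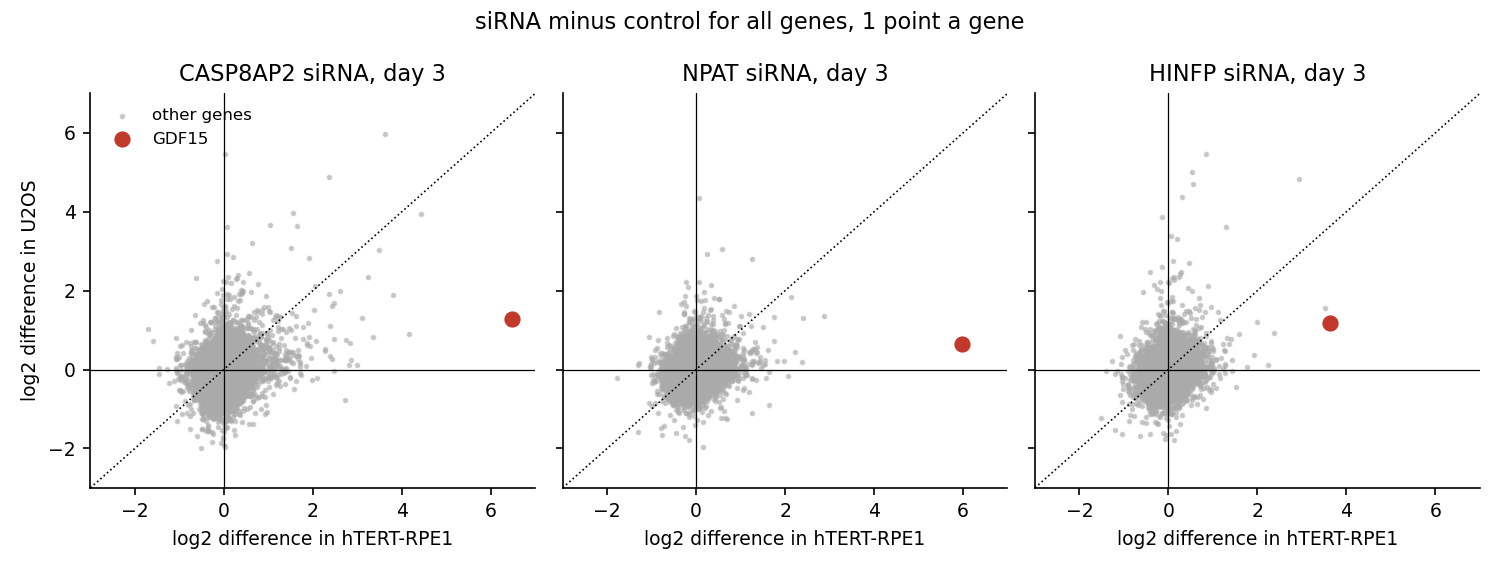
Log2 difference against control siRNA on day 3 in hTERT-RPE1 cells (horizontal axis) and in U2OS cells (vertical axis), 1 panel per siRNA and 1 grey point per gene, with GDF15 in red. The dotted line marks equal differences in both lines. GDF15 lies at 6.48, 5.98 and 3.64 on the horizontal axis and at 1.28, 0.66 and 1.18 on the vertical axis.

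Ordered by level over the 8 groups of days 1 and 2, GDF15 was lowest in hTERT-RPE1 controls of day 2 (4.78) and day 1 (5.23). U2OS controls of day 1 (6.54), U2OS CASP8AP2 siRNA of day 1 (7.58) and U2OS controls of day 2 (7.76) followed, the last 2 with overlapping arrays. hTERT-RPE1 cells with CASP8AP2 siRNA stood at 8.45 on day 1 and at 10.43 on day 2, and U2OS cells with CASP8AP2 siRNA on day 2 stood at 10.60, again with overlap between the top 2 groups. On day 3 the order from the lowest was hTERT-RPE1 control (4.47 ± 0.12, SD, n = 2), hTERT-RPE1 HINFP (8.11 ± 0.60), U2OS control (8.80), U2OS NPAT (9.46 ± 0.11), U2OS HINFP (9.98 ± 0.10), U2OS CASP8AP2 (10.09 ± 0.02), hTERT-RPE1 NPAT (10.45 ± 0.26) and hTERT-RPE1 CASP8AP2 siRNA (10.96 ± 0.01). The means of U2OS HINFP and U2OS CASP8AP2 siRNA were 0.11 apart, which is less than the SE of 0.20.

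Other genes of the pathways around GDF15 were tested with limma over all genes, at an adjusted p under 0.05. Symbols came from a table used here in part, which paired 1924 genes, so 44 of the 184 list genes could be followed and ATF4, CDKN1A, MDM2, GFRAL and RET were not analysed here. Of all genes, CASP8AP2 siRNA called 0.793%, 6.40% and 6.15% in hTERT-RPE1 cells on days 1, 2 and 3, and 5.87%, 24.9% and 18.9% in U2OS cells. NPAT siRNA called 5.04% and 8.13% in the 2 lines and HINFP siRNA 4.15% and 9.43%. Control cells of day 2 against day 1 had 10.0% called in hTERT-RPE1 and 13.0% in U2OS cells. The counts of list members below are to be read against these shares.

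Of 11 p53 target genes in hTERT-RPE1 cells, CASP8AP2 siRNA raised 1, 4 and 3 on days 1, 2 and 3 and lowered none, with list medians of 0.01, 0.14 and 0.16 against medians of all genes of -0.00, -0.02 and -0.03. NPAT siRNA raised 4 and HINFP siRNA 1. In U2OS cells 2 rose on day 1, 6 rose and 1 fell on day 2, and 3 rose and 2 fell on day 3. The list medians there were 0.04, 0.18 and -0.14 on the 3 days, against 0.01, -0.01 and 0.02 for all genes. NPAT siRNA there raised 2 and lowered 1, and HINFP siRNA had 0 calls by limma, with 2 genes at an unadjusted p under 0.05. In control cells of day 2 against day 1, 0 rose and 3 fell in hTERT-RPE1, and 3 rose and 2 fell in U2OS cells. PMAIP1, which encodes the pro-apoptotic protein NOXA, was the member called under CASP8AP2 siRNA on day 1 in hTERT-RPE1 cells. Its control arrays read 8.46 ± 0.06 (SD, n = 3) that day and its CASP8AP2 siRNA arrays 8.90 ± 0.13, a log2 difference of 0.44 (SE 0.07, limma adjusted p 0.0027). On day 2 they read 8.11 ± 0.15 and 9.05 ± 0.07, a difference of 0.94 (limma adjusted p 1.3e-08). On day 3, with n = 2, they read 8.15 ± 0.08 and 9.23 ± 0.06, a difference of 1.08 (SE 0.12, limma adjusted p 8.7e-05). In U2OS cells PMAIP1 started higher, at 9.92 ± 0.08 on day 1, and differed by 0.26 (limma adjusted p 0.0311), 0.36 (0.000652) and 0.23 (0.194) on the 3 days. Its effect differed between the lines on day 3 (U2OS minus hTERT-RPE1 -0.84, limma adjusted p 0.00809). PMAIP1 was named for its day 3 change, so this comparison reuses the arrays of that choice.

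CD82, a tetraspanin known as a suppressor of metastasis, had the largest rise of the p53 targets on day 3 in hTERT-RPE1 cells, from 7.90 ± 0.24 to 9.56 ± 0.09 (log2 difference 1.67, SE 0.15, limma adjusted p 1.71e-05). In U2OS cells it rose by 0.49 (adjusted p 0.0344), a call that was lost without any 1 of the 4 arrays compared, at 0.39 to 0.58, and also after median centring. POLH, a polymerase that copies past DNA damage, rose by 0.41 in hTERT-RPE1 cells (limma adjusted p 0.00662). That call was lost without CASP8AP2 siRNA replicate 1 or in a fit of only the arrays compared (difference 0.37 to 0.44 with 1 array left out). In U2OS cells POLH fell by 0.30 (limma adjusted p 0.0154). APAF1, the core of the apoptosome, rose by 0.39 in U2OS cells (limma adjusted p 0.0452), a call lost without any 1 of its 4 arrays, at 0.31 to 0.47, and after median centring or with only the arrays compared.

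Of 12 genes of the integrated stress response and unfolded protein response, 0 were called by limma in hTERT-RPE1 cells on day 1 (4 at an unadjusted p under 0.05), 1 rose and 1 fell on day 2, and 2 fell on day 3. In U2OS cells 5 rose on day 1, 5 on day 2 and 3 on day 3, and none fell. List medians on days 1, 2 and 3 were 0.07, 0.04 and -0.10 in hTERT-RPE1 cells and 0.22, 0.18 and -0.01 in U2OS cells, beside the medians of all genes given above. NPAT siRNA called 0 in hTERT-RPE1 (3 unadjusted) and raised 1 in U2OS cells, and HINFP siRNA lowered 2 and 1. ASNS, which encodes asparagine synthetase, fell on day 3 from 6.99 ± 0.14 to 6.43 ± 0.11 in hTERT-RPE1 cells (log2 difference -0.55, SE 0.11, limma adjusted p 0.0078), while it rose from 8.57 ± 0.08 to 9.08 ± 0.16 in U2OS cells (0.52, limma adjusted p 0.00484). The effect differed between the lines by 1.07 (SE 0.15, limma adjusted p 0.00129), in a comparison that reuses the day 3 arrays for which ASNS was named. On days 1 and 2 ASNS rose in U2OS cells by 0.53 (limma adjusted p 8.33e-05) and 1.00 (1.85e-09). In control cells of day 2 against day 1, 2 list members rose and 2 fell in hTERT-RPE1, and 4 rose and 2 fell in U2OS cells.

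The day 3 call of ASNS in hTERT-RPE1 cells was lost without control replicate 2 or CASP8AP2 siRNA replicate 2 (-0.65 to -0.46) and with only the arrays compared, and that in U2OS cells without CASP8AP2 siRNA replicate 1 (0.40 to 0.63). SLC7A1, a transporter of arginine and lysine, fell in hTERT-RPE1 cells on day 3 (-0.45, limma adjusted p 0.00889), with the call lost without the same 2 arrays (-0.52 to -0.39) and with only the arrays compared. SLC7A11, the cystine transporter, rose in U2OS cells by 0.37 on day 1 (limma adjusted p 0.000729), by 0.74 on day 2 (1.71e-08), then by 0.35 on day 3 (0.047), the last lost without any 1 of its 4 arrays (0.29 to 0.41), after median centring, with the replicate block and with only the arrays compared.

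**Figure D4:**
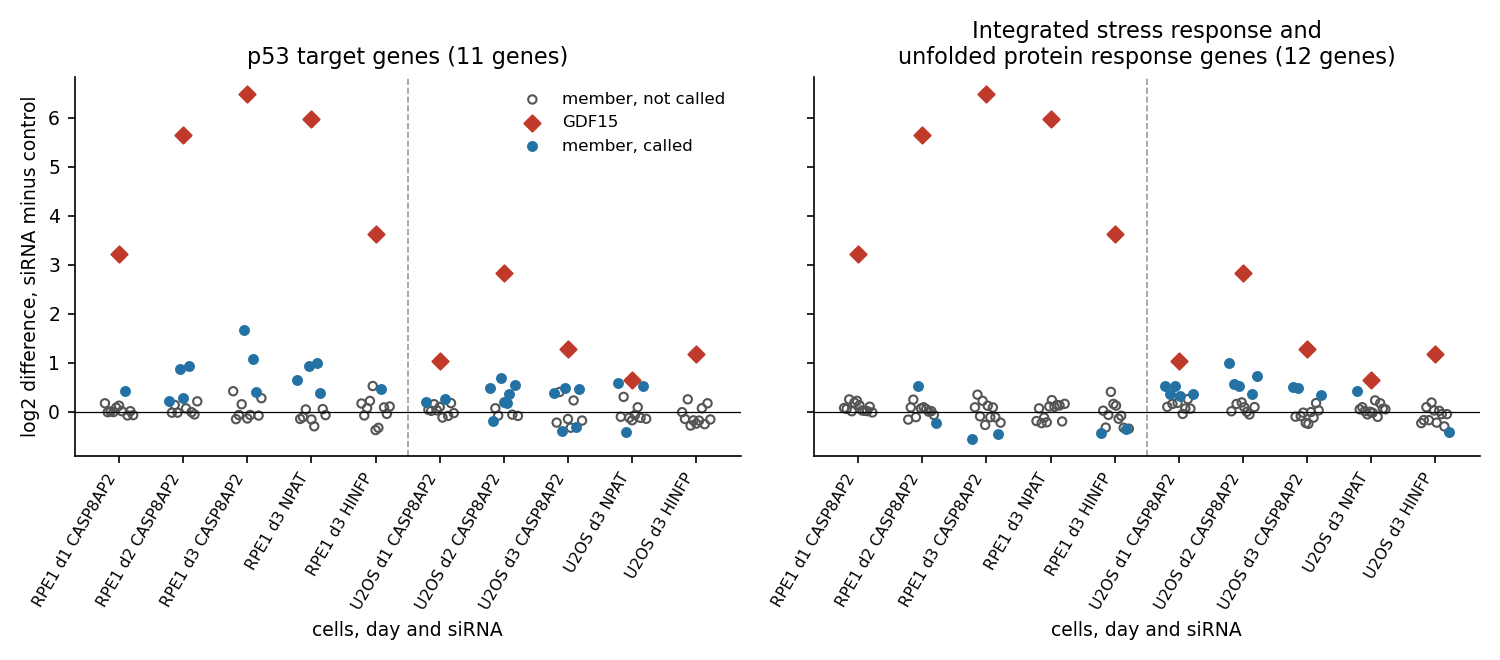
Log2 difference against control siRNA (vertical axis) of 11 p53 target genes on the left and 12 genes of the integrated stress and unfolded protein responses on the right, in each line, day and siRNA (horizontal axis). Filled points are members called by limma over all genes, open points are members not called red diamonds are GDF15, which was not tested, and the dashed line parts the cell lines. In hTERT-RPE1 cells the highest list member reaches 1.67, where GDF15 reaches 6.48.

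Of 3 transcription factors known to act at the GDF15 promoter, CASP8AP2 siRNA had 0 calls in hTERT-RPE1 cells on any day (1 at an unadjusted p under 0.05 on each day by limma). In U2OS cells it raised 1 on day 1, raised 1 and lowered 1 on day 2, and raised 1 and lowered 2 on day 3. NPAT siRNA lowered 1 in U2OS cells and had 0 calls by limma in hTERT-RPE1 cells (1 unadjusted). HINFP siRNA had 0 calls in either line (1 unadjusted in each). CEBPB, which is also in the list of stress response genes, rose in U2OS cells under CASP8AP2 siRNA. Its differences there were 0.36, 0.56 and 0.48 on days 1, 2 and 3 (limma adjusted p 0.0129, 3.62e-05 and 0.00503). In hTERT-RPE1 cells they were 0.26, 0.25 and 0.35. The U2OS call of CEBPB on day 3 was lost without control replicate 1 or CASP8AP2 siRNA replicate 1 (0.41 to 0.55). SP1 fell in U2OS cells on day 3 from 9.33 ± 0.09 to 8.76 ± 0.14 (-0.57, limma adjusted p 0.00079) and SP3 fell by 0.40 (adjusted p 0.0243). The SP3 call was lost without control replicate 1 or CASP8AP2 siRNA replicate 1 (-0.50 to -0.31), after cyclic loess normalization and with only the arrays compared. In hTERT-RPE1 cells SP1 read 9.22 ± 0.03 and 9.17 ± 0.05, and SP3 8.11 ± 0.06 and 8.10 ± 0.05, with control and CASP8AP2 siRNA on day 3.

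Among 11 other ligands of the TGF-beta family, in hTERT-RPE1 cells 0 were called by limma with CASP8AP2 siRNA on days 1, 2 and 3 (1, 3 and 3 at an unadjusted p under 0.05). NPAT and HINFP siRNA each lowered 1 there, BMP6, by -0.41 and -0.53 (limma adjusted p 0.0291 and 0.0112). In U2OS cells CASP8AP2 siRNA raised 1 and lowered 1 on day 1, and raised 1 and lowered 3 on days 2 and 3 each. The member that rose was BMP6, a ligand of bone formation and iron control, from 6.31 ± 0.01 to 7.59 ± 0.02 on day 3 (log2 difference 1.27, SE 0.10, limma adjusted p 3.73e-06), and it also rose under NPAT siRNA (0.85, adjusted p 0.000203) and HINFP siRNA (1.04, adjusted p 3.11e-05). BMP5 and BMP4, which are also bone morphogenetic proteins, fell on day 3, from 8.65 ± 0.02 to 7.39 ± 0.43 (-1.26, limma adjusted p 0.00258) and from 8.85 ± 0.30 to 7.63 ± 0.74 (-1.22, adjusted p 0.0106). The BMP4 call was lost without control replicate 2 or CASP8AP2 siRNA replicate 1 (-1.75 to -0.70) and with only the arrays compared. BMP5 had differences of -1.57 to -0.96 with 1 array left out.

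Of the receptor and SMAD list 6 genes could be followed. NPAT siRNA lowered 1 in hTERT-RPE1 and raised 1 in U2OS cells, by limma. HINFP siRNA had 0 calls in either line (2 and 1 at an unadjusted p under 0.05). CASP8AP2 siRNA had 0 calls in hTERT-RPE1 cells on days 1 and 2 and in U2OS cells on day 1 (1 unadjusted in each). It raised 1 in U2OS cells on day 2, and raised 1 and lowered 1 in each line on day 3. GFRA2, a receptor of the same family as GFRAL, rose in hTERT-RPE1 cells on day 3 from 3.84 ± 0.15 to 4.45 ± 0.27 (0.61, limma adjusted p 0.0193), which is near the bottom of the array range, and the call was lost without control replicate 2 or CASP8AP2 siRNA replicate 1 (0.42 to 0.81) and with only the arrays compared. GFRA3 and GFRA4, of that family too, had no call in the 10 siRNA comparisons and differences of -0.26 to 0.19. ACVR1C, a type I receptor of the family, was called in U2OS cells on day 2 (0.49, limma adjusted p 0.00102). SMAD1, which carries the bone morphogenetic protein signal, fell on day 3 by 0.73 in U2OS cells (limma adjusted p 0.00146) and by 0.50 in hTERT-RPE1 cells (adjusted p 0.0304), the latter lost without any 1 of its 4 arrays (-0.52 to -0.48) and with only the arrays compared. SMAD7, an inhibitor of the pathway, rose in U2OS cells by 0.38 (limma adjusted p 0.032), lost without either control array or CASP8AP2 siRNA replicate 2 (0.28 to 0.49), after median centring and with only the arrays compared.

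The proteases FURIN and PCSK7, which can cut precursors of this kind, were called in none of the 10 siRNA comparisons, with limma differences between -0.15 and 0.33. At an unadjusted p under 0.05, 1 of them was reached under CASP8AP2 siRNA on days 2 and 3 in each line. FURIN fell between days 1 and 2 in U2OS control cells (-0.31, limma adjusted p 0.0105), while GDF15 was higher there on day 2.

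The genes whose pattern over the arrays was most like that of GDF15 were ranked by Pearson's r over the 40 arrays, after centring each gene within each cell line and set. These arrays share their siRNA groups, and r is a description. Of 22068 other genes 4 had r above 0.9 and 55 above 0.8. The most alike was ENSG00000214049, with no paired symbol (r 0.95), and among genes with a symbol PMAIP1 (0.93), LAMB3, a laminin chain (0.87, rank 15 of all genes), TNFAIP2, a gene induced by tumor necrosis factor (0.83, rank 30), MCAM, a cell adhesion molecule (0.81, rank 44), and PGF, placental growth factor (0.81, rank 46). Within the 20 hTERT-RPE1 arrays their r lay between 0.89 and 0.96. Within the 20 U2OS arrays it was 0.89 for ENSG00000214049, 0.88 for PMAIP1, 0.76 for LAMB3, 0.85 for TNFAIP2, 0.23 for MCAM and 0.92 for PGF.

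Their differences were smaller than that of GDF15 in hTERT-RPE1 cells. ENSG00000214049 differed by 1.14, 3.18 and 3.35 under CASP8AP2 siRNA on days 1, 2 and 3, by 2.40 under NPAT siRNA and by 1.99 under HINFP siRNA. In U2OS cells its differences were 0.54, 1.52, 0.82, 1.30 and 1.21 in the same order. PGF had a like difference in both lines under CASP8AP2 siRNA on day 3, 1.22 in hTERT-RPE1 and 1.37 in U2OS cells, but under HINFP siRNA these were 0.07 and 1.74. MCAM differed by 1.95 in hTERT-RPE1 and 0.30 in U2OS cells under CASP8AP2 siRNA on day 3, and by 2.23 and 0.45 under NPAT siRNA.

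**Figure D5:**
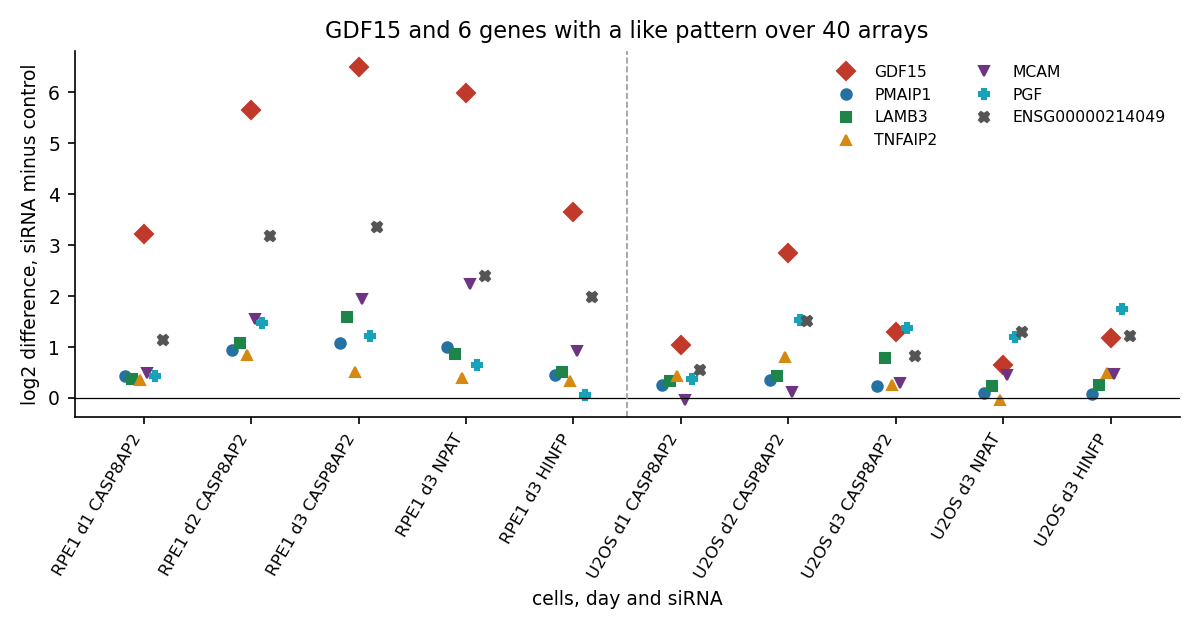
Log2 difference against control siRNA (vertical axis) of GDF15 (red diamonds) and of 6 genes with a like pattern, the most alike of all genes and the 5 most alike that have a paired symbol, in each line, day and siRNA (horizontal axis). The dashed line parts the cell lines. In hTERT-RPE1 cells on day 3 under CASP8AP2 siRNA the 6 genes lie between 0.52 and 3.35, below GDF15 at 6.48.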

How the data were processed

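RNA of U2OS and hTERT-RPE1 cells was hybridized to Affymetrix Human WT arrays. The deposited values are on the log2 scale, made by the authors with RMA (per the labels' processing notes) in the Bioconductor package affy with a custom probe grouping of 1 set per Ensembl gene. The version and genome build of the grouping are not given in the sources used here. RMA sets arrays of a set to a shared distribution, so a change in total RNA cannot be seen.

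Groups came from the labels. limma 3.58.1 in R 4.3.3 (lmFit and eBayes, two-sided, Benjamini-Hochberg over 22069 genes) was fitted to the 24 arrays of days 1 and 2 (16 residual degrees of freedom) and the 16 of day 3 (8) apart, and was tested on simulated data. GDF15 has no p-value, because it was picked on these values. The number of arrays limits the precision, and day 3 p-values measure only the spread between simultaneous duplicates. The gene, the lists and the rules were chosen with earlier results of these data known. Named were the targeted genes, per list the up to 3 called members with the largest change under CASP8AP2 siRNA on day 3 in each line, the 5 genes with a symbol most like GDF15 and an unnamed gene above them, and the short lists in full. Other list members are named where a count or comparison needs them and were chosen after their values were seen, and 1 member that the rule names is not reported here. Alternatives were median centring, cyclic loess and quantile normalization, a replicate block, eBayes with a trend, other sets of arrays or genes, and each array left out. Promoters were searched in Python.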

Additional observations from a re-analysis of the deposited data

Results flagged for a closer look

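For GDF15 every hTERT-RPE1 control array of day 2 lay below every one of day 1, and every U2OS control array of day 2 lay above. These are separate, unpaired arrays. Of all genes, 11.9% lay wholly lower on day 2 in hTERT-RPE1 controls and 15.6% wholly higher in U2OS controls. The U2OS change exceeded the hTERT-RPE1 change by 1.67 on the log2 scale, and the difference was not tested.

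The effect of CASP8AP2 siRNA on day 3 differed between the lines (U2OS minus hTERT-RPE1, limma, adjusted over all genes) for the 11 named list genes given here. These genes were picked for their day 3 change in either line, so the comparison reuses the arrays of that choice. The share of all genes called in it is not given here, so the count has no yardstick. The calls between the lines were not repeated with arrays left out. It was lower in U2OS cells for CD82 (-1.18, adjusted p 0.00478), PMAIP1 (-0.84, 0.00809), POLH (-0.71, 0.0021), BMP5 (-1.24, 0.0338), GFRA2 (-0.87, 0.0162) and SP1 (-0.52, 0.0201). It was higher in U2OS cells for ASNS (1.07, adjusted p 0.00129), SLC7A1 (0.49, 0.0296), SLC7A11 (0.57, 0.0422), BMP6 (1.29, 0.00016) and SMAD7 (0.68, 0.0199).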

How the results depend on the processing

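None of the 35 GDF15 differences changed direction under median centring, cyclic loess, quantile normalization, the replicate block or any array left out. Median centring moved them by at most 0.16, cyclic loess by 0.13, quantile normalization by 0.14 and the replicate block by 0.15. With 1 array left out the values that moved beyond the residual SD of 0.24 were those of HINFP siRNA in hTERT-RPE1 cells, which ran from 3.22 to 4.06 against control, from -2.88 to -2.04 for the line difference, from 1.45 to 2.29 for the level in U2OS minus hTERT-RPE1, and from 2.42 to 3.27 and 1.92 to 2.76 against CASP8AP2 and NPAT siRNA. The deviations of same-numbered arrays correlated with r of -0.10 to 0.21, and r was over 0.1 in 6 of 24 pairs (both pairs of a day 3 comparison give the same r), so the numbers were not taken as pairing.

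Over the 44 list genes, calls under CASP8AP2 siRNA in hTERT-RPE1 cells were 1, 6 and 7 on days 1, 2 and 3 and with only the arrays compared 0, 3 and 2; all 40 arrays in 1 fit gave 13 on day 3. Under NPAT siRNA there 6 became 2 with only the arrays compared. Under HINFP siRNA there 4 became 2 with median centring or the replicate block, 13 with all arrays and 0 with only the arrays compared. In U2OS cells with only the arrays compared, 9 calls became 2 on day 1 and 16 became 9 on day 3; under NPAT siRNA 7 became 12 with all arrays; under HINFP siRNA 2 became 1 with cyclic loess, the replicate block or only the arrays compared and 9 with all arrays. In hTERT-RPE1 controls 10 became 4 with only the arrays compared. With 1 array left out the day 3 counts ran from 4 to 6, 3 to 4 and 0 to 3 (CASP8AP2, NPAT, HINFP) in hTERT-RPE1 cells and from 7 to 14, 1 to 4 and 1 to 3 in U2OS cells; days 1 and 2 gave 1 to 1 and 4 to 6, then 4 to 8 and 14 to 15, and controls 6 to 11 and 14 to 16. Of the 5 genes with a symbol most like GDF15, 2 remained among the 50 most alike over 16 group means and 0 over U2OS arrays alone. The cause was not tested.

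Over all genes, calls with only the arrays compared fell in hTERT-RPE1 cells from 175 to 28, 1413 to 495 and 1358 to 384 (CASP8AP2 siRNA, days 1, 2 and 3), 1112 to 149 (NPAT), 915 to 25 (HINFP) and 2209 to 722 (controls), and in U2OS cells from 1295 to 612 and 4165 to 2455 (CASP8AP2 siRNA, days 1 and 3) and 2081 to 1108 (HINFP). That fit has fewer samples. With all 40 arrays in 1 fit the day 3 calls were 2489, 2477 and 2281 (CASP8AP2, NPAT, HINFP) in hTERT-RPE1 cells, and in U2OS cells 1794 became 3156 (NPAT) and 2081 became 3467 (HINFP). With 1 array left out the lowest day 3 counts were 541, 235 and 145 in hTERT-RPE1 and 1792, 510 and 814 in U2OS cells, and on day 1 80 in hTERT-RPE1 cells.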
